A study of Caenorhabditis elegans with 6 samples.

Results

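The 10 genes described here encode core proteins of maternal messenger ribonucleoprotein particles and P bodies in *Caenorhabditis elegans*. They are the Y-box genes *cey-1*, *cey-2*, *cey-3* and *cey-4*, the translational repression genes *cgh-1*, *car-1* and *ifet-1*, and the decapping genes *dcap-1*, *dcap-2* and *patr-1*. They were chosen by name and function, with earlier results of these data known, out of 20240 gene models in the files. Of the 10, 9 were found by their public name, and *ifet-1* was found by its WormBase identifier under its older name *pqn-45*. All 10 were present in the 2-cell embryo. A gene counts as present when its normalized read counts average more than 10 across the 6 libraries and both cells have reads. Of all gene models, 7945 were present.

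The mRNA of the anterior AB blastomere (3 libraries) and the posterior P1 blastomere (3 libraries) was measured by sequencing of amplified RNA, RNA-amp-seq. All came from the wild type strain N2, grown at 20 °C, with embryos taken from gravid adults, freed of their eggshells with enzymes and split into the larger AB and the smaller P1 cell by hand. No library carried a mutation or a treatment. Each library was a pool of cells, and libraries with the same replicate number hold matched cells and are called a pair below. Values are relative within a library, so they give the share of a gene among the reads of a cell, not its molecules per cell.

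Maternal mRNAs in the worm germ line and early embryo are stored with proteins that keep them from being translated or degraded. Y-box proteins bind mRNA through a cold-shock domain and coat many transcripts. CGH-1, a DEAD-box helicase of the DDX6 family, forms granules with CAR-1, a protein of the Lsm14 family. IFET-1 is the worm 4E-T protein, which binds the cap-binding factor eIF4E. DCAP-2 removes the cap of an mRNA and DCAP-1 is its cofactor, while PATR-1, the worm Pat1 protein, activates decapping and recruits the Lsm1-7 ring. P bodies are the cytoplasmic granules in which repression and decapping proteins gather.

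The libraries held 21249850 to 35591254 counted reads. The floor of 3 counts was 0.0843 to 0.141 CPM. P1 replicate 1 was the shallowest library, with 21249850 reads against 23293735 in P1 replicate 2, and had reads on 8575 gene models against 9458 to 11638 in the other 5. Its log2 normalized read counts over present genes correlated less with the other 5 libraries (Pearson r 0.911 to 0.924). Among those 5, r was 0.951 to 0.980. Of the present genes, 33.3% had their highest normalized read count in P1 replicate 1 and 37.3% had their lowest there. For this reason the fold changes below are also given without it where leaving it out changed a call or a sign or moved the value by over 1.5 times. Of the cell markers, *mex-3*, an AB-enriched mRNA, had 60132 to 65459 normalized read counts in AB and 28710 to 35357 in P1. *nos-2*, a maternal mRNA lost from somatic cells only at later stages, had 4658 to 6168 in AB and 6869 to 7917 in P1. The P1 marker *pos-1* overlapped between the cells. Of the sperm, muscle and hypodermis markers, *msp-3*, *msp-10*, *msp-31* and *rol-6* were at 0 in all 6 libraries and *dpy-7* had at most 2.91. The muscle marker *myo-3* was at 0 in 4 libraries, with 51.2 in AB replicate 3 and 5.43 in P1 replicate 1.

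None of the 10 genes passed the test for a difference between AB and P1. With edgeR's quasi-likelihood test and an adjusted P value below 0.10, 0 of 10 were called in either direction, where 1.46% of present genes were called, 0.604% as AB-enriched and 0.856% as P1-enriched. DESeq2 also called 0 of 10, against 2.14% of present genes. At an unadjusted P value below 0.05, 1 of the 10 passed with each tool, *patr-1*. Of the 7945 present genes, 10.4% passed with edgeR, and 688 genes passed with DESeq2. The log2 fold changes of P1 over AB ran from -0.64 for *patr-1* to 0.48 for *car-1*. Their standard errors ran from 0.23 to 0.30. The fold change was positive for 7 of the 10, with a median of 0.11, and the median over all present genes was 0.01. It was positive for 4 of the 10 once P1 replicate 1 was left out, with a median of -0.09 against -0.02 over all present genes. A miss of the threshold does not show equal levels, since the 95% interval of each gene reached 0.55 or farther from 0 on the log2 scale.

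**Figure D1:**
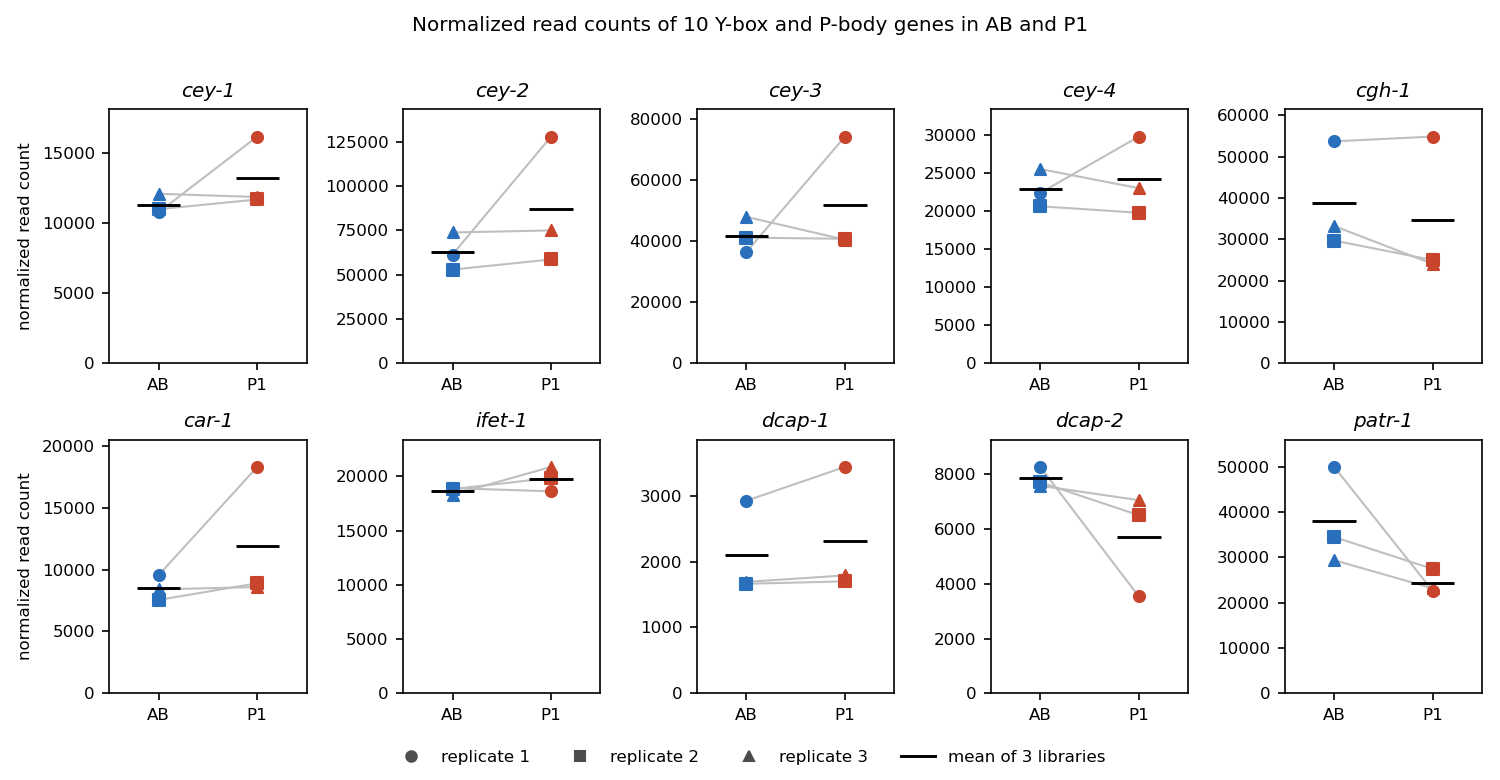
Normalized read counts of the 10 genes, 1 panel per gene with its own axis from 0, in AB (blue) and P1 (red). Symbols mark the replicate number, grey lines join the libraries of a pair and black bars are means of 3 libraries. P1 replicate 1 (red circle) is the highest point for 7 genes and the lowest for *dcap-2* and *patr-1*.

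The 4 Y-box genes were abundant in both cells. Per kilobase of the longest spliced transcript, *cey-2* had a mean of 74159 normalized read counts over the 6 libraries and ranked 11 of the 7806 present genes with a known length. On the same scale *cey-3* had 47260 (rank 27), *cey-4* had 19899 (rank 101) and *cey-1* had 8883 (rank 387). Together the 4 genes took 0.470%, 0.476% and 0.617% of all counted reads in AB, and 0.861%, 0.483% and 0.590% in P1. P1 replicate 1 was the highest of these 6 values, and the other P1 libraries lay within the range of AB.

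*cey-2* (chromosome I, 5619570 to 5620670, plus strand, ce10) is one of the cold-shock domain genes whose product acts in the germ line. It had 61376, 52881 and 73863 normalized read counts in AB replicates 1 to 3, and 128089, 58606 and 75033 in P1. P1 replicate 1 was the highest library, P1 replicate 3 lay just above the AB range and P1 replicate 2 lay inside it. The log2 ratio within pairs was 1.06, 0.15 and 0.02. With edgeR the log2 fold change was 0.47 (95% interval -0.13 to 1.06, adjusted P = 0.686), and it was 0.07 without P1 replicate 1.

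*cey-3* lies close to *cey-2* on chromosome I (5571790 to 5572976, minus strand). Its normalized read counts were 36381, 41096 and 47901 in AB and 74197, 40723 and 40424 in P1. Only P1 replicate 1 was above the AB range. The log2 ratio was 1.03 in pair 1, -0.01 in pair 2 and -0.24 in pair 3, and edgeR gave a log2 fold change of 0.30 (95% interval -0.26 to 0.86, adjusted P = 0.746). Without P1 replicate 1 the fold change was -0.07, so its sign rested on that library.

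*cey-4* (chromosome III, 10866850 to 10868628, minus strand) had 22403, 20650 and 25548 normalized read counts in AB and 29823, 19791 and 23030 in P1. The groups overlapped, with the highest and the lowest value both in P1. The edgeR log2 fold change was 0.07 (95% interval -0.43 to 0.58, adjusted P = 0.943), and -0.12 without P1 replicate 1. *cey-1* (chromosome II, 11039352 to 11041150, minus strand) had 10779, 10997 and 12097 in AB and 16182, 11689 and 11864 in P1. Again the groups overlapped and P1 replicate 1 was the highest library. Its edgeR log2 fold change was 0.22 (95% interval -0.26 to 0.70, adjusted P = 0.751), and 0.04 without P1 replicate 1.

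Per kilobase, the 4 Y-box genes kept the same order in every library, *cey-2* above *cey-3* above *cey-4* above *cey-1*. Of the normalized read counts summed over the 4, not divided by length, *cey-2* took 45.1% ± 2.62 (SD, n = 3) in AB and 48.8% ± 3.53 in P1. Divided by length, its share was 47.0% ± 2.70 and 50.5% ± 3.43. The share of *cey-3*, again of reads not divided by length, was 30.2% ± 2.47 and 29.3% ± 2.18. For *cey-4* it was 16.5% ± 0.547 in AB and 14.2% ± 1.86 in P1. In each AB library *cey-4* took a larger share, 16.0% to 17.1%, than in any P1 library, 12.0% to 15.3%. The lowest, 12.0%, was in P1 replicate 1, and P1 replicates 2 and 3 had 15.1% and 15.3%. The shares of *cey-1*, *cey-2* and *cey-3* overlapped between the cells. Shares within the family are tied to each other, and how often such a separation is found for other genes was not determined. The *cey-1* shares were 8.19% ± 0.583 and 7.78% ± 1.21. These shares do not depend on the scaling of a library, and no test was run on them. How reads matching more than 1 gene were counted is not given in the sources used here, so values of these related genes are uncertain to that extent.

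**Figure D2:**
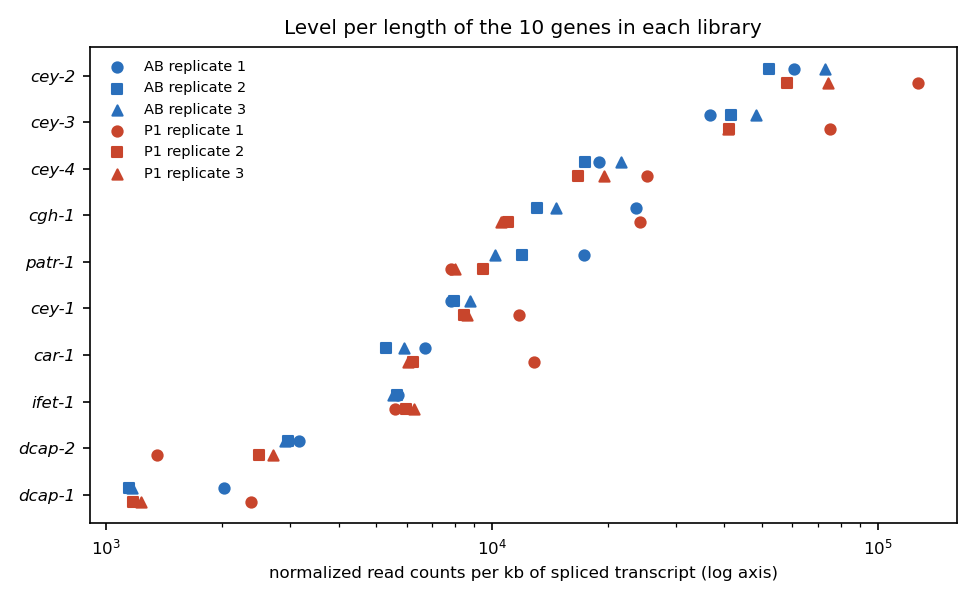
Normalized read counts per kilobase of spliced transcript (log axis) for the 10 genes, ordered by their mean, in each AB (blue) and P1 (red) library. Along this order, the ranges of neighbours are separate only between *cey-3* and *cey-4* and between *ifet-1* and *dcap-2*.

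On the scale of normalized read counts per kilobase, the other 6 genes ran from 16162 for *cgh-1* to 1516 for *dcap-1*. *patr-1* had 10788 (rank 283), *car-1* had 7179 (rank 513), *ifet-1* had 5799 (rank 694) and *dcap-2* had 2595 (rank 1862). *cgh-1* ranked 152 and *dcap-1*, the lowest of the 10, ranked 2903. Most neighbours in the order of the 10 overlapped across libraries. *cey-2* was above *cey-3* in 6 of 6 libraries, by 1.26 to 1.82 times, although their ranges overlapped. *cgh-1* was above *patr-1* in 6 of 6 libraries, by 1.09 to 3.09 times. The order of *patr-1* over *cey-1* and of *car-1* over *ifet-1* held in only 4 of 6 libraries each. Because amplification starts from the poly(A) tail, levels per length are approximate.

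The 3 repression genes did not share a pattern. *cgh-1* (chromosome III, 7495254 to 7497768, minus strand) had 53708, 29675 and 33206 normalized read counts in AB and 54856, 24966 and 24000 in P1. Both libraries of pair 1 stood above the other 4, and P1 was lower than AB in pairs 2 and 3. The log2 ratios within pairs were 0.03, -0.25 and -0.47. The edgeR log2 fold change was -0.17 (95% interval -0.79 to 0.44, adjusted P = 0.862).

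This value moved more with single libraries than that of any other of the 10 genes. Without P1 replicate 1 the log2 fold change of *cgh-1* was -0.69 (edgeR, adjusted P = 0.0127), past the threshold as AB-enriched, where 3.51% of present genes were AB-enriched and 6.72% were called in either direction. With *patr-1*, 2 of the 10 were called there. That comparison sets all 3 AB libraries, the high AB replicate 1 included, against 2 P1 libraries. With both libraries of pair 1 left out the log2 fold change was -0.37 (edgeR, adjusted P = 0.429). Without AB replicate 1 it was 0.11.

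The pattern of *cgh-1*, with both pair 1 libraries above the other 4, was shared by *car-1* and *dcap-1* and was found for 11.4% of present genes. Of the maternal mRNA markers, *mex-5* had it, with 56636 normalized read counts in AB replicate 1 and 53095 in P1 replicate 1, against 24191 to 28107 elsewhere. So did *oma-1* and *pos-1*, while *pie-1* and *glp-1* did not. The yolk protein gene *vit-2* had 101 normalized read counts in AB replicate 1 and 114 in P1 replicate 1, and at most 2.52 in the other 4. Its relative *vit-6* had 133 and 136 in those libraries and at most 8.14 elsewhere. The intestine factor gene *elt-2* was at 0 in both libraries of pair 1 and had 15.6 in AB replicate 2. The part of this in the result was not tested.

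*car-1* (chromosome I, 12904460 to 12906218, plus strand) had 9547, 7545 and 8395 normalized read counts in AB and 18285, 8895 and 8587 in P1. P1 replicate 1 was far above the rest. The log2 ratios of 0.94, 0.24 and 0.03 were positive in all 3 pairs, a pattern shared by *cey-2* and *dcap-1* and found for 19.1% of present genes. The edgeR log2 fold change was 0.48 (95% interval -0.07 to 1.02, adjusted P = 0.674), and 0.02 without P1 replicate 1.

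*ifet-1* (chromosome III, 4471378 to 4475112, minus strand) was the steadiest of the 10. It had 18917, 18827 and 18309 normalized read counts in AB and 18620, 19860 and 20873 in P1. The coefficient of variation was 1.76% in AB and 5.70% in P1, the lowest of the 10 in each cell. Its edgeR log2 fold change was 0.08 (95% interval -0.40 to 0.55, adjusted P = 0.936), and it stayed between 0.03 and 0.13 whichever library or pair was left out.

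The read ratio of a gene pair within a library does not depend on scaling. The ratio of *cgh-1* to *car-1* reads was 5.63, 3.93 and 3.96 in AB and 3.00, 2.81 and 2.80 in P1. All 3 AB libraries were above all 3 P1 libraries, including those of pair 1. The ratio of *cgh-1* to *ifet-1* reads, by contrast, overlapped, with 2.84, 1.58 and 1.81 in AB and 2.95, 1.26 and 1.15 in P1. So did the ratios of *cey-2* to *cey-3*, of *cey-4* to *cey-1* and of *dcap-2* to *dcap-1*. How often other pairs of genes separate between the cells was not determined. The ratios were looked at after the values of the genes were known, and no test was run on them.

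**Figure D3:**
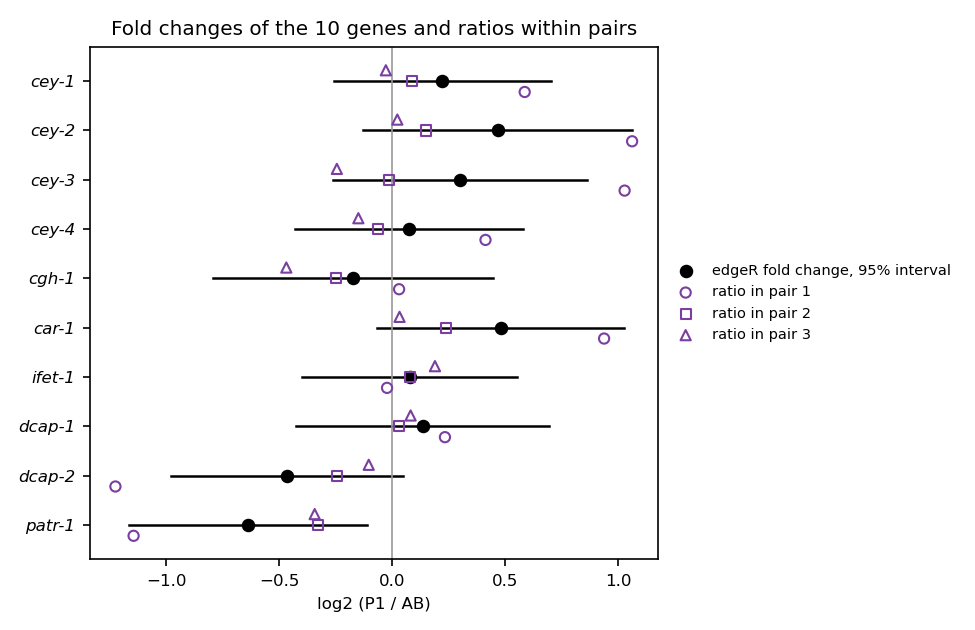
Log2 fold change of P1 over AB from edgeR (black points) with its 95% interval (lines), and the log2 ratio within each pair (open symbols), for the 10 genes. The interval spans 0 for every gene except *patr-1*, and pair 1 (circles) lies farthest from 0 in 8 genes. The share of present genes with pair 1 farthest from 0 was not determined.

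Of the decapping genes, *patr-1* and *dcap-2* were lower in every P1 library than in any AB library. This pattern held for 2 of the 10 genes and for 8.81% of present genes, and the reverse for 0 of the 10 and 7.1%. Both genes were thus lower in P1 in all 3 pairs, as were 21.4% of present genes. *patr-1* (chromosome II, 11774605 to 11777882, minus strand) had 49962, 34485 and 29386 normalized read counts in AB and 22607, 27452 and 23168 in P1. The P1 libraries were close together and AB replicate 1 was high. The log2 ratios were -1.14, -0.33 and -0.34. The edgeR log2 fold change was -0.64 (95% interval -1.17 to -0.11, unadjusted P = 0.0192, adjusted P = 0.472), which does not pass.

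Without P1 replicate 1 the *patr-1* fold change was much the same, -0.61, and passed (edgeR, adjusted P = 0.0440) as AB-enriched. That comparison kept the high AB replicate 1 without its partner. With both libraries of pair 1 left out the *patr-1* fold change was -0.34 and did not pass (edgeR, adjusted P = 0.537). *patr-1* was also the only 1 of the 10 whose coefficient of variation was larger in AB than in P1, with 28.2% and 10.9%.

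*dcap-2* had 8269, 7707 and 7580 normalized read counts in AB and 3538, 6503 and 7053 in P1. The AB libraries lay close together, and P1 replicate 1 was far below the other P1 libraries. The log2 ratios were -1.22, -0.24 and -0.10. With edgeR the log2 fold change was -0.46 (95% interval -0.98 to 0.05, adjusted P = 0.668), and -0.24 without P1 replicate 1. The files list *dcap-2* on chromosome IV at 13509201 to 13521848, a location shared with 2 other gene models, *puf-3* and *Y45F10A.3*. That location is therefore not the extent of *dcap-2* alone. The WBcel235 annotation puts *dcap-2* on the minus strand. The *puf-3* row, for a Pumilio-family RNA-binding protein, held 7785 to 13717 normalized read counts in AB and 13457 to 29981 in P1, overlapping between the cells. *Y45F10A.3* had at most 28.2.

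*dcap-1* (chromosome IV, 1052586 to 1054796, minus strand) did not follow *dcap-2*. It had 2923, 1663 and 1692 normalized read counts in AB and 3436, 1700 and 1790 in P1, with both pair 1 libraries high. The log2 ratios of 0.23, 0.03 and 0.08 were small and positive in all 3 pairs. Its edgeR log2 fold change was 0.14 (95% interval -0.42 to 0.69, adjusted P = 0.890), and -0.28 without P1 replicate 1. Within a library the ratio of *dcap-2* to *dcap-1* reads was 2.83, 4.63 and 4.48 in AB and 1.03, 3.83 and 3.94 in P1. Per kilobase, the catalytic subunit was above its cofactor in 5 of 6 libraries, the exception being P1 replicate 1.

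P1 replicate 1 was the highest of the 6 libraries for 7 of the 10 genes, against 33.3% of present genes, and the lowest for 2, *dcap-2* and *patr-1*, against 37.3%. The exception was *ifet-1*, which was neither highest nor lowest there. By pair, 7 of 10 genes were higher in P1 in pair 1, 5 of 10 in pair 2 and 4 of 10 in pair 3. The median log2 ratio of the 10 was 0.32 in pair 1, 0.01 in pair 2 and -0.07 in pair 3. The coefficient of variation was larger in P1 than in AB for 9 of the 10. The share of present genes with a larger value in P1 was not determined, so this count is not a trait of the 10.

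**Figure D4:**
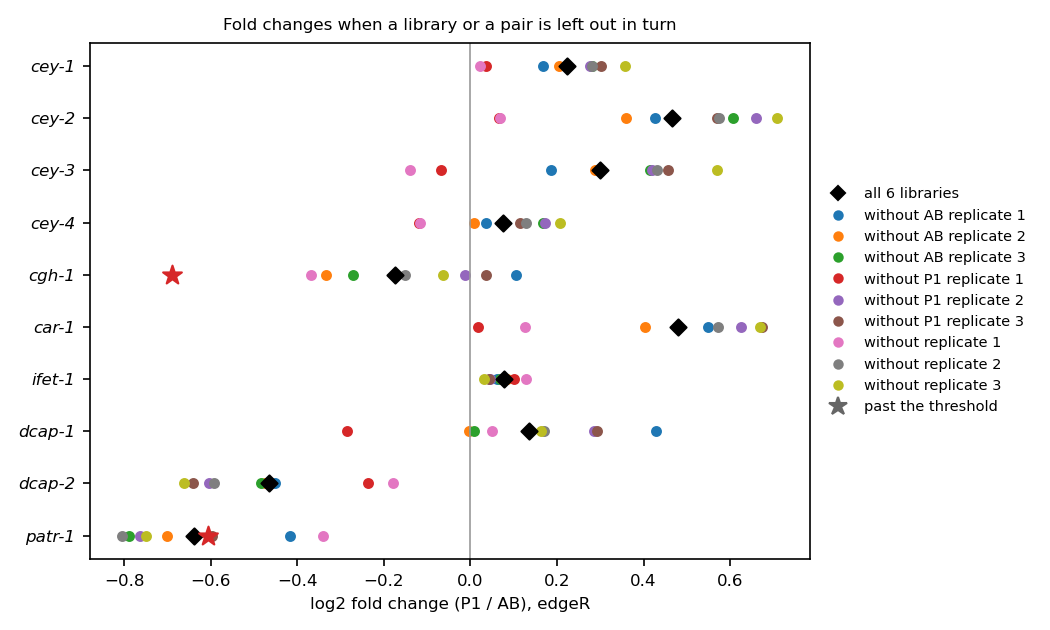
Log2 fold change of P1 over AB from edgeR for the 10 genes with all 6 libraries (black diamonds) and with 1 library or both libraries of 1 pair left out (coloured points). Stars are past the threshold: *cgh-1* and *patr-1* without P1 replicate 1, at -0.69 and -0.61. The points of *ifet-1* lie between 0.03 and 0.13.

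Across genes, shorter transcripts had higher fold changes, and the relation was weaker without P1 replicate 1. Over the 7806 present genes with a length, the correlation of log2 spliced length with the edgeR log2 fold change was -0.26, and over the 10 genes it was -0.75. Without P1 replicate 1, an alternative chosen after seeing the data, it was -0.07 and -0.43. These correlations are descriptions over genes of the same 6 libraries, which are not independent replicates. The Y-box transcripts had spliced lengths of 990 to 1381 bases, and those of *dcap-2*, *patr-1* and *ifet-1* had 2611, 2890 and 3317. *ifet-1*, the longest of the 10, was the exception, with a fold change near 0. P1 replicate 1 moved with length too: the correlation of log2 length with its log2 ratio to the other P1 libraries was -0.32 over present genes and -0.65 over the 10. The part of length in the fold changes was not tested.

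**Figure D5:**
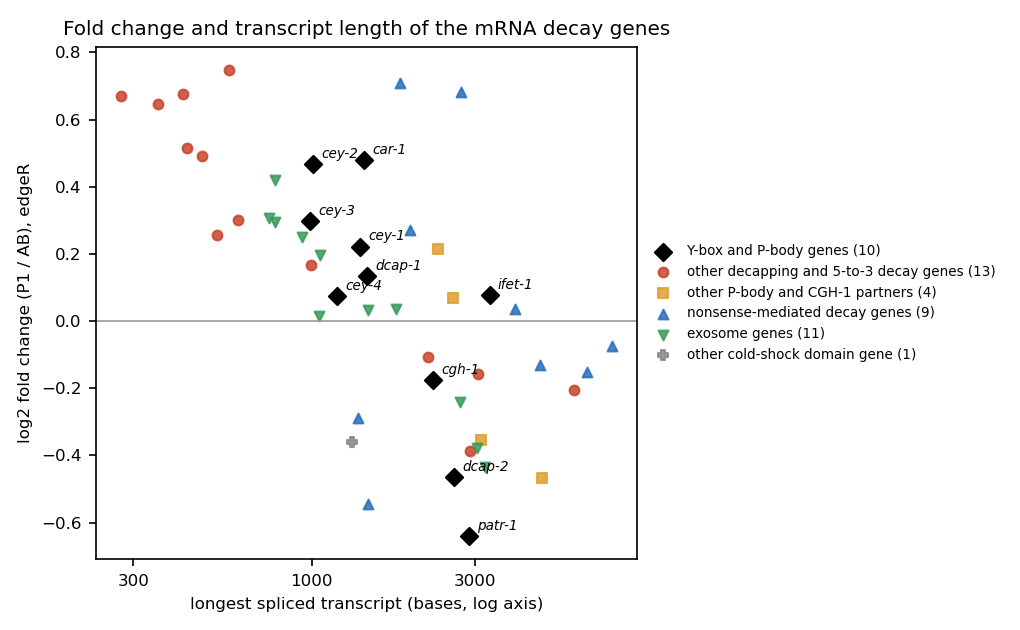
Log2 fold change of P1 over AB from edgeR against the longest spliced transcript in bases (log axis), for the 10 genes (black, named) and 38 other mRNA decay and repression genes by list. Short Lsm ring genes lie at the upper left, and *dcap-2* and *patr-1* lie at the lower right, with r = -0.75 over the 10 and -0.67 over the 38 (-0.43 and -0.20 without P1 replicate 1).

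The wider pathway was read from 5 further lists with 38 present genes. Of these, 0 were called in either direction by edgeR and 0 by DESeq2, against 1.46% and 2.14% of present genes. An unadjusted P value below 0.05 was found for 6 with edgeR and 4 with DESeq2. Of the 7945 present genes, 826 and 688, respectively, had such a value. In the list of 13 other decapping and 5′-to-3′ decay genes, 9 had a positive log2 fold change and the median was 0.30, with 4 at an unadjusted P value below 0.05. The median of this list was 0.05 without P1 replicate 1, and 0 of the 13 then had an unadjusted edgeR P value below 0.05. Of the 4 other P-body genes 2 were positive (median -0.14). Of the 9 nonsense-mediated decay genes 4 were positive (median -0.07), and of the 11 exosome genes 8 were (median 0.04). These were 5 of the 9 (median 0.02) and 7 of the 11 (median 0.02) without P1 replicate 1.

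The 8 Lsm ring genes, whose products form the rings that bind the 3′ ends of deadenylated mRNAs or of U6 snRNA, belong to the first list and were singled out after their values were seen. All 8 (*lsm-1*, *gut-2* and *lsm-3* to *lsm-8*) had positive log2 fold changes, 0.26 to 0.75, where 51.6% of present genes with a length were positive. None passed, with edgeR adjusted P values of 0.337 to 0.746. Their fold changes without P1 replicate 1 were -0.0040 to 0.32, positive for 7 of 8, where 46.3% of present genes with a length were positive. P1 replicate 1 was the highest of 6 libraries for each, with log2 ratios of 0.99 to 1.53 in pair 1, against -0.08 to 0.23 in pair 2 and -0.18 to 0.35 in pair 3. Their transcripts were short, 276 to 609 bases. *lsm-8*, which belongs to the nuclear ring, had the largest fold change of its list. It had 1427, 1467 and 1468 normalized read counts in AB and 3785, 1718 and 1873 in P1, higher in P1 in all 3 pairs and without overlap. It did not pass (edgeR, log2 fold change 0.75, adjusted P = 0.337), and without P1 replicate 1 its fold change was 0.28 (edgeR, adjusted P = 0.724). It was past the threshold without P1 replicate 2 (0.92, edgeR adjusted P = 0.0307) and without P1 replicate 3 (0.92, edgeR adjusted P = 0.0800). *lsm-5* and *lsm-7*, at 0.67 and 0.68 with all libraries, also passed without P1 replicate 2, but were at 0.03 and 0.08 without P1 replicate 1. Of all present genes, 6.28% were called without P1 replicate 2 and 3.57% without P1 replicate 3.

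Of the nonsense-mediated decay genes, *smg-5*, a partner of the phosphatase that acts on SMG-2, had the largest fold change. It had 409, 412 and 533 normalized read counts in AB and 262, 1017 and 937 in P1. P1 replicate 1 was the lowest of the 6 and the other P1 libraries were the highest. The edgeR log2 fold change was 0.71 (adjusted P = 0.659), and 1.09 without P1 replicate 1 (edgeR, adjusted P = 0.00038). *smg-8*, named after its values were seen, encodes a subunit of the SMG-1 kinase complex in mammals. It had 1374, 1272 and 1889 in AB and 2155, 2233 and 2914 in P1. Every P1 library was above every AB library, with log2 ratios of 0.65, 0.81 and 0.63. The edgeR log2 fold change was 0.68 (adjusted P = 0.335), and 0.74 without P1 replicate 1 (edgeR, adjusted P = 0.0018).

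In the remaining lists, *nhl-2*, a TRIM-NHL protein gene of the microRNA pathway, had an edgeR log2 fold change of -0.47 (adjusted P = 0.674). Without P1 replicate 1 it was -0.55 and past the threshold as AB-enriched (edgeR, adjusted P = 0.0712), as were 3.51% of present genes. *nhl-2* had 2765, 1507 and 1875 normalized read counts in AB and 1621, 1081 and 1758 in P1. That comparison thus kept the high AB replicate 1 without its partner. With both libraries of pair 1 left out, the *nhl-2* fold change was -0.26 and did not pass (edgeR, adjusted P = 0.894). *mtr-4*, an exosome helicase gene, had 6799, 6342 and 6373 normalized read counts in AB and 2992, 5950 and 5538 in P1. As for *dcap-2*, every P1 library was below every AB library and P1 replicate 1 was the lowest. Its edgeR log2 fold change was -0.43 (adjusted P = 0.686), and -0.20 without P1 replicate 1. The other cold-shock domain gene, *lin-28*, had 399, 224 and 287 in AB and 262, 212 and 237 in P1, overlapping between the cells.

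The genes whose values followed most closely the member with the highest mean normalized read count in each group over the 6 libraries were found by Pearson correlation of log2 normalized read counts, as a description. For *cey-2* they were *F45H10.2* (r = 0.998), *B0261.7* (0.995) and *C47G2.3* (0.995). For *cgh-1* they were *pdi-3* (0.986), a protein disulfide isomerase gene, *F32A7.5* (0.981) and *F23F1.5* (0.980). For *patr-1* they were *ZK632.7* (0.994), *nas-39* (0.994) and *W07E11.1* (0.992). The *cey-2* group had its highest value in P1 replicate 1 and the *patr-1* group in AB replicate 1. The 3 genes closest to *cgh-1* were high in both libraries of pair 1.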

How the data were processed

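RNA of AB and P1 cells was amplified by oligo-dT-primed T7 transcription and sequenced in 6 libraries, grouped by the sample labels. Raw counts of reads for each gene model were deposited: reads were filtered with Tagdust, aligned to ce10 with TopHat 1.4.0 and counted with HTSeq 0.5.3. Use of strand and of reads matching several genes is not given in the sources used here. The authors also deposited normalized read counts, a signal in which the counts of each library were divided by 1 size factor from DESeq 1.2.1. Coordinates are those of the files, and several gene models can share 1 location. Strands are from the WBcel235 annotation. Lengths are of the longest WBcel235 transcript, matched by WormBase identifier. No sequences were used here. Replicates are separate pools.

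Fold changes (P1 over AB) were fitted to the counts in R 4.3.3 by edgeR 4.0.16 (TMM, then glmQLFit and glmQLFTest without a block). All 13717 gene models that had any read entered, and Benjamini-Hochberg adjustment covered all of them. A call needed an adjusted P value below 0.10 and a present gene. The fit was tested on simulated data. Ratios within pairs used normalized read counts with a pseudocount of 1. Alternatives were DESeq2 1.42.0, other scalings, filters and thresholds, a replicate block, and each library or pair left out. Python 3.11.15, numpy 2.4.6, pandas 2.3.3 and matplotlib 3.10.9 were used.

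Matched cells were pooled for each replicate, so the numbers pair the libraries. Deviations from the group means correlated by 0.17, 0.22 and 0.17 within pairs and by -0.22 to 0.08 between them. The deviations of a gene cancel out within a cell, so the values between pairs are not independent of those within pairs. The 10 genes and all lists were chosen with earlier results of these data known. Named genes were the 10, the gene with the largest absolute fold change in each other list, and the 3 most alike to the member of each group with the highest mean. Of the lists, *exos-4.1* and the marker *unc-54* share a row with another gene and were not analysed here.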

Additional observations from a re-analysis of the deposited data

How the results depend on the processing

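For the 10 genes, all 70 fold changes under the 7 settings that kept every library (DESeq2, both other scalings, both filters, the stricter threshold and the replicate block) kept their direction and side of the threshold. For the stricter threshold this was fixed in advance, since it used the main fit and none of the 10 had passed there. With the replicate block, which uses the pairing, *patr-1* had -0.61 (edgeR, adjusted P = 0.463), and the block changed no call among the 10. Over all present genes, the block gave 40 AB-enriched and 51 P1-enriched calls. The counts of present genes called AB-enriched, 48, were 75 with DESeq2, 26 with filterByExpr and 25 with only present genes fitted. P1-enriched calls, 68, were 27 with each of those filters. Over the 9 fits without a library or a pair, the ranges were 27 to 279 and 44 to 293 present genes called, 0 to 2 and 0 to 0 of the 10 genes, and 0 to 1 and 0 to 3 of the 38 other pathway genes, AB-enriched and P1-enriched. The median fold change of the 10 ran from -0.09 to 0.22.

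Signs changed in these fits for *cey-3* (-0.14 to 0.57), *cey-4* (-0.12 to 0.21), *cgh-1* (-0.69 to 0.11) and *dcap-1* (-0.28 to 0.43). The cause was not tested. With 3 libraries a cell, the standard errors of 0.23 to 0.30 limit what could be called. Amplified reads are not independent molecules, so floors cover counting error only.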
